A study of Mus musculus with 4 samples.

Results

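The nuclear-encoded subunits of the mitochondrial respiratory chain were described across control and cytokine-stimulated Mnk3 cells. Members were protein-coding genes whose symbols belong to the Nduf, Sdh, Uqcr, Cox4 to Cox8 and Atp5 families, kept with at least 100 counts summed over the 4 libraries. Of 41388 genes listed, 84 matched by symbol and 77 were kept, and all 77 were among the 13838 genes tested. By complex, 36 belonged to complex I, 4 to complex II, 8 to complex III, 12 to complex IV and 17 to complex V. The rule used total level and not the difference between groups.

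The respiratory chain passes electrons from NADH, through complex I, and from succinate, through complex II, by way of coenzyme Q to complex III, then by cytochrome c to complex IV and oxygen. Complexes I, III and IV pump protons across the inner mitochondrial membrane, and complex V, the ATP synthase, lets them flow back to make ATP. Complex II is encoded wholly in the nucleus, whereas the other complexes combine nuclear subunits with a few core subunits encoded by mitochondrial DNA. In lymphocytes, mitochondrial mass and respiration are known to increase when cells are activated and grow.

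Mnk3 is a mouse line that resembles ILC3, the lymphoid cells of mucosal tissue that release IL-22 and belong to group 3 of the innate lymphoid cells. Control cells were labelled as control, with no dose given, and stimulated cells received IL-1b and IL-23, both at 10 ng/ml, for about 16 h. Each group had 2 libraries of ribosomal-RNA-depleted total RNA, called here 1 (the title that carries a replicate number) and 2 (the title that carries none). All results come from 1 cell line. The labels do not say whether the libraries came from separate cultures, so the p-values measure only how far these 4 libraries differ, and that spread may be technical. Library totals ranged from 23047723 to 29078765 counts. The ILC3 markers together made 4615 to 4717 CPM (counts scaled to library size) in controls and 1825 to 1934 CPM in stimulated libraries, with none of the 10 at 0. Markers of T cells summed to 19.6 to 24.0 CPM in controls and 12.0 to 16.0 CPM in stimulated libraries, and those of B cells to at most 3.76 CPM. Myeloid markers summed to 0.962 to 2.12 CPM in controls and 2.22 to 9.37 CPM in stimulated libraries, with Adgre1 rising, Itgam and Csf1r not passing the test and Lyz2 at 0. Those of epithelial, stromal and erythroid cells summed to at most 1.39 CPM.

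The promoters of the members are shown first, since short sequence motifs in them were not used to choose the members. No motif searched was present in all of them. Promoters of 300 bases, 250 before and 50 after the annotated start, were taken from RefSeq on build GRCm38.p6, and 65 of the 77 members matched. The motif of NRF1, a transcription factor known for nuclear mitochondrial genes, was searched as CGCANGCG on both strands. It was present in 25 of 65 members (38.5%), against 9.22% of 27025 genes and 12.5% of 17492 protein-coding genes in the same table. Ndufb4 and Sdha each held 3 such matches. Atp5g3 held 1, read on the opposite strand, together with an E-box (CACGTG), the site that Myc and Max are known to bind. Cox7a2l, the member that fell on stimulation, held none of the motifs searched. These 4 promoters are given 5' to 3' on the gene's strand, with NRF1 and E-box matches in capitals, at chr16:37654319-37654618 for Ndufb4, chr13:74350191-74350490 for Sdha, chr2:73911277-73911576 for Atp5g3 and chr17:83514284-83514583 for Cox7a2l, all on the minus strand.
Ndufb4: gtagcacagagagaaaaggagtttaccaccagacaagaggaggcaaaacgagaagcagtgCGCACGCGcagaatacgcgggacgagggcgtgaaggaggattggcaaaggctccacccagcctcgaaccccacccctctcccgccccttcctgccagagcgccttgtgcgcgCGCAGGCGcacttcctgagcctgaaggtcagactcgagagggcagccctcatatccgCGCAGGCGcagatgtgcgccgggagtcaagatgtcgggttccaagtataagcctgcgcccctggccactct
Sdha: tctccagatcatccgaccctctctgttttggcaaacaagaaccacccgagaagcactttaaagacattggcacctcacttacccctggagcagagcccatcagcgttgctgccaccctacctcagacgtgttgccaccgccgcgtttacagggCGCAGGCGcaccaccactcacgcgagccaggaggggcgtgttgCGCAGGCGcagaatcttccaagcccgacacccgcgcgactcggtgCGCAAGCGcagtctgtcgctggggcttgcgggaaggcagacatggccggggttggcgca
Atp5g3: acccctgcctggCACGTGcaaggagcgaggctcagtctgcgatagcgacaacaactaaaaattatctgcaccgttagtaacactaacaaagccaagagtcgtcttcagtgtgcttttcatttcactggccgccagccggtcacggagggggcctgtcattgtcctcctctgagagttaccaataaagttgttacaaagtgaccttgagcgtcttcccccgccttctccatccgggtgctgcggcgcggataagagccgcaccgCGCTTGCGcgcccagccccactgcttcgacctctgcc
Cox7a2l: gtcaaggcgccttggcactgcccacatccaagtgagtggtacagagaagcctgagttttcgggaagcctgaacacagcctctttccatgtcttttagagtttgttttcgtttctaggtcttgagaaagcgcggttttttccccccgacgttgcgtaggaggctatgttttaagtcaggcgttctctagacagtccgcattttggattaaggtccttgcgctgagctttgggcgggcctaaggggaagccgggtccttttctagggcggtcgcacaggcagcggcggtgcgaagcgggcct

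Of the other motifs searched, 2 were more frequent in the members than in the table and 1 was near its share there. The ETS motif CCGGAAG, which GABP can bind, was in 24.6% of members, 9.93% of all genes and 12.9% of protein-coding genes. The YY1 motif AAGATGGC was in 15.4% of members, 3.19% of all genes and 3.57% of protein-coding genes. The E-box CACGTG was in 9.23% of members, 8.09% of all genes and 8.91% of protein-coding genes. Each was searched by itself on both strands, so matches may overlap, and CACGTG reads the same on both. A gene with several promoters counted as holding a motif if any of them did, as 5 members could. The NRF1 motif was about as frequent in members that rose as in the others: 11 of 30 members that rose (36.7%) and 14 of 34 that did not pass the test (41.2%) held it. By complex, it was in 9 of 15 promoters of complex V, 10 of 32 of complex I, 3 of 5 of complex III, 2 of 3 of complex II and 1 of 10 of complex IV. None of the 4 motifs was found in 21 members, among them Ndufv2 and Atp5b, which both rose. A match is a description of the letters in this window and not evidence of binding.

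Stimulation was accompanied by higher RNA of many respiratory chain genes. Of the 77 members, 32 rose, 1 fell and 44 did not pass edgeR's quasi-likelihood test at an adjusted p of 0.05, and 47 had an unadjusted p under 0.05. The members that rose were 41.6% of the total, while 17.5% of all genes tested rose and 18.3% fell. The median log2 fold change of the members was 0.57 and that of all genes tested was -0.016. In 65 members both stimulated libraries lay above both controls, which held for 34.4% of all genes tested. In 3 members, Ndufv3, Cox7a1 and Cox7a2l, both lay below, which held for 36.3% of all genes. In the remaining 9, all of complex I except Sdha, the groups overlapped. No member of complexes I, II, III or V fell by edgeR, DESeq2 or limma-voom, nor had a lower value at an unadjusted p under 0.05. In these bulk samples, a larger share of cells with high expression and more RNA per cell cannot be told apart.

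**Figure D1:**
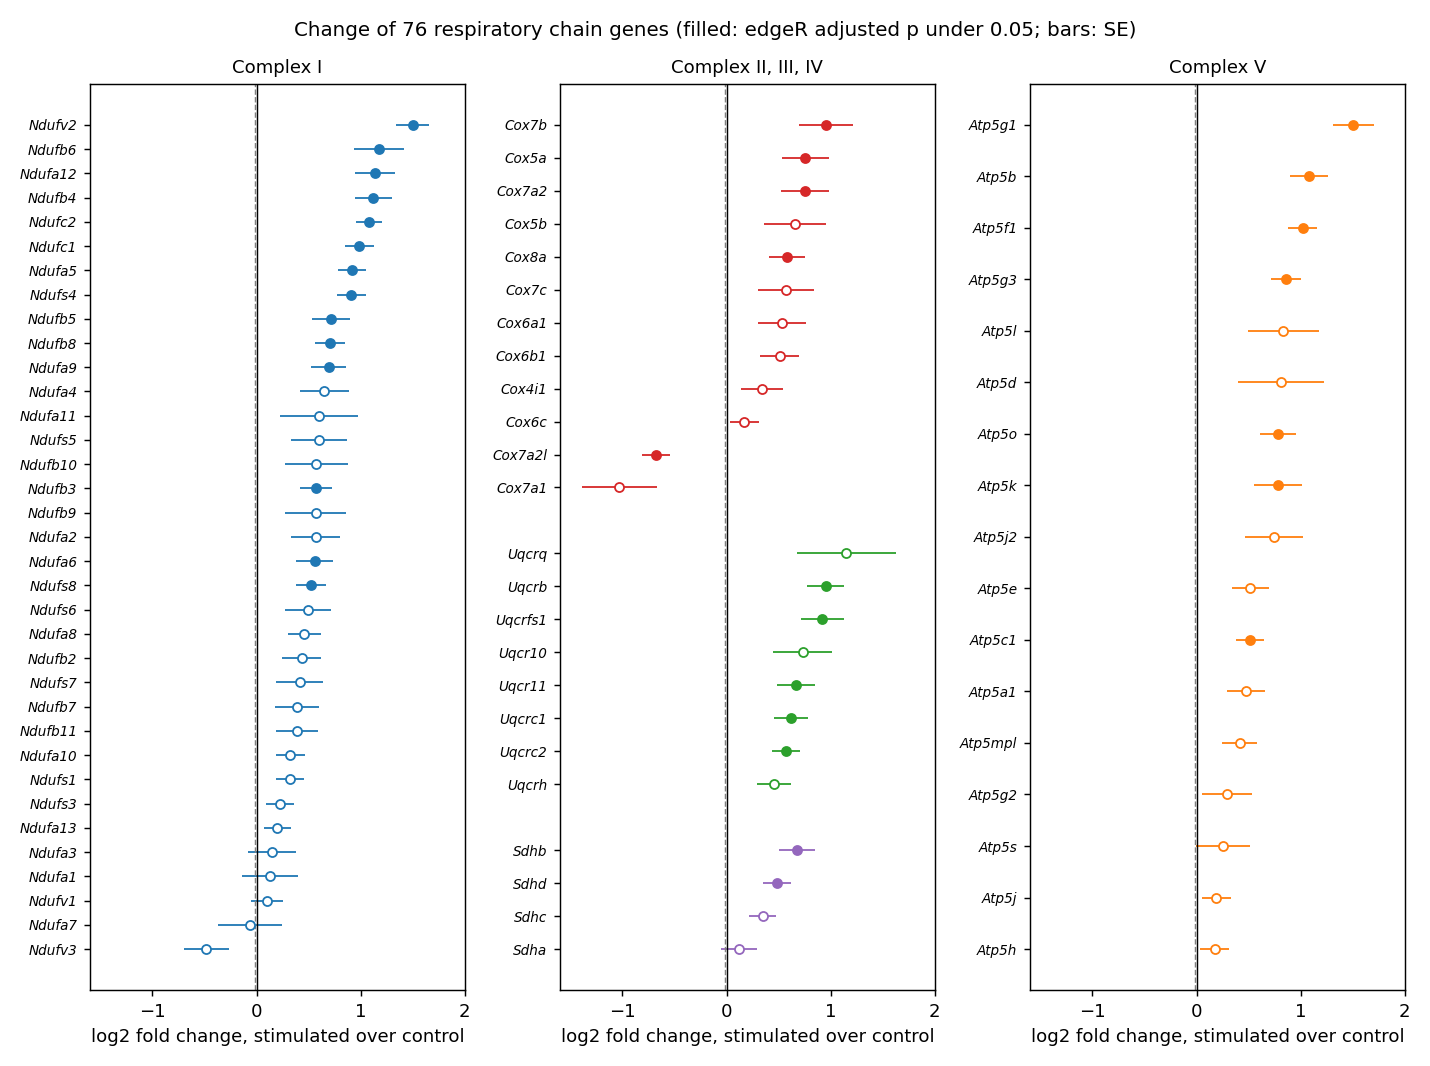
Log2 fold change of 76 of the 77 members, stimulated over control, with its SE, by complex; filled points passed edgeR's adjusted p of 0.05, and the dashed line is the median of all genes tested. Nearly all points lie right of 0, from -1.03 for Cox7a1 to 1.51 for Atp5g1, and Cox7a2l is the single filled point on the left.

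The same counts were also read as the share of each library that the members took up. Together they made 1.12% and 0.914% of all counts in the 2 control libraries and 1.51% and 1.35% in the stimulated libraries, with no overlap (1.02% ± 0.143 against 1.43% ± 0.114, SD, n = 2). Complex V contributed most, with 0.393% and 0.341% in controls and 0.606% and 0.530% after stimulation. Much of its share lay in 2 genes, Atp5a1 and Atp5b. They held 37231 and 27908 of its 114170 counts in control 1, and 47746 and 52202 of 161948 in stimulated 1. Complex I made 0.361% and 0.288% in controls and 0.448% and 0.408% after stimulation. An exact permutation test of 2 against 2 libraries cannot give a two-sided p below 0.333, so these shares were not tested.

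The libraries of 1 group differed from each other in the same genes. Control 1 lay above control 2 in 71 of 77 members (92.2%, against 49.3% of all genes tested), by a median of 0.31 on the log2 scale. Stimulated 1 lay above stimulated 2 in 64 members (83.1%, against 49.5% of all genes tested), by a median of 0.19. Across the members, the gap between the controls was larger in genes of shorter listed length (Spearman's rho = -0.48 over 77 genes of the same libraries). Length and the log2 fold change had a rho of -0.09, which does not measure how length bears on the median of the members. With a correction for length and GC content that median was 0.48, against 0.57 without it. The part of the gap between the controls in the results was not tested. Fits that left out 1 library kept a single library in 1 group, so the spread within that group was not measured. Calls and adjusted p-values from them describe how results shift and are not evidence of a rise or fall. A pass gained only in such a fit is not given for single genes. The median log2 fold change of the members was 0.40 without control 2, 0.46 without stimulated 1, 0.78 without control 1 and 0.68 without stimulated 2. In the same order, that of all genes tested was -0.009, -0.028, 0.0026 and -0.035. Of the 33 calls, 16 held in each of the 4 fits that left out 1 library: Ndufa5, Ndufa12, Ndufb4, Ndufb6, Ndufb8, Ndufc1, Ndufc2, Ndufs4, Ndufv2, Uqcrb, Cox7a2l, Atp5b, Atp5f1, Atp5g1, Atp5g3 and Atp5o.

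The libraries were also set side by side by the kind of title, library 1 against library 1 and library 2 against library 2. The median log2 ratio of stimulated to control was 0.51 in the first pair and 0.66 in the second. It was above 0 in both pairs for 71 members (92.2%), against 41.3% of all genes tested. It was below 0 in both for 3 members, against 5962 of all 13838 genes tested. Over the 77 genes the ratios of the 2 pairs, which share no library, had a Pearson's r of 0.85 and a Spearman's rho of 0.80. These were not computed over all genes tested. The titles do not say that libraries of a kind were prepared together, so the opposite pairing is equally possible, and its r was not computed. Library 1 lay above library 2 in 71 members in controls and in 64 in stimulated libraries, a gap that this pairing takes out. Under any pairing, both ratios are above 0 in the 65 members whose stimulated libraries both lay above both controls.

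**Figure D2:**
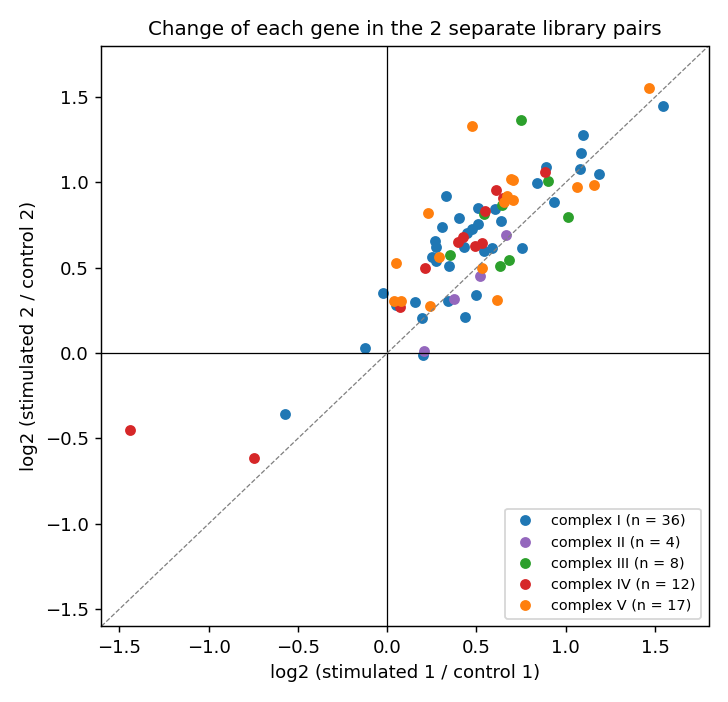
Log2 ratio of stimulated to control CPM for each member in the pair of libraries 1 (x axis) and the pair of libraries 2 (y axis), coloured by complex; the dashed line marks equal ratios. In 71 of 77 genes both ratios are above 0, and Ndufv3, Cox7a1 and Cox7a2l are below 0 in both.

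In complex I, NADH dehydrogenase, 14 of 36 members rose, none fell and 22 did not pass, with a median log2 fold change of 0.56. The member with the strongest evidence was Ndufv2, a core subunit of the NADH-oxidising arm that carries an iron-sulphur cluster (chr17:66078795-66101559, minus strand, as the count tables list it). It was at 88.4 and 78.7 CPM in controls and at 257 and 215 CPM in stimulated libraries, a fold change of 2.83 with an SE of 0.16 on the log2 scale (edgeR adjusted p = 0.000917). Both stimulated values were more than the sum of the control values. Among the nuclear-encoded core subunits, Ndufv2 and Ndufs8 rose, while Ndufv1, Ndufs1, Ndufs3 and Ndufs7 had log2 fold changes from 0.10 to 0.42 and did not pass. Of the 28 accessory subunits, which surround the core and serve its assembly and stability, 12 rose.

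Ndufc2 and Ndufc1 are accessory subunits of the membrane arm, and their libraries lay close together within each group. Ndufc2 was at 68.9 and 67.8 CPM in controls and 146 and 143 CPM after stimulation, a log2 fold change of 1.08 ± 0.13 (edgeR adjusted p = 0.00142). Ndufc1 was at 35.8 and 31.5 CPM in controls and 66.5 and 67.1 CPM after stimulation, a log2 fold change of 0.99 ± 0.14 (edgeR adjusted p = 0.0028). Ndufb6, also of the membrane arm, was at 27.1 and 18.0 CPM in controls and 58.1 and 43.8 CPM after stimulation, a log2 fold change of 1.17 ± 0.24 (edgeR adjusted p = 0.0114). In all 3 genes both stimulated libraries exceeded both controls. Of the 50-base stretches in the transcripts of Ndufb6, 31.6% also occur in another gene, and its exons overlap Smim27 on the opposite strand. Whether counting used strand is not given in these sources, so its count is less certain. Ndufa12, Ndufb4, Ndufa5 and Ndufs4 rose as well, by log2 fold changes of 1.13, 1.12, 0.92 and 0.91.

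Per length (mean RPKM), the most abundant complex I genes that did not pass were Ndufa4 and Ndufa2. Ndufa4, which was named for complex I and is now known to bind complex IV, was at 162 and 103 CPM in controls and 231 and 186 CPM after stimulation (log2 fold change 0.65 ± 0.24, edgeR adjusted p = 0.0765). Its controls differed more than its stimulated libraries did. Ndufa2, an accessory subunit of the NADH-oxidising arm, was at 130 and 82.7 CPM in controls and 171 and 143 CPM after stimulation. Its log2 fold change was 0.57 ± 0.23 (edgeR adjusted p = 0.104). The groups did not overlap in either gene, but the controls lay far apart. Ndufv3, an accessory subunit of the NADH-oxidising arm, had lower values on stimulation, 108 and 85.3 CPM against 160 and 109 CPM in controls. With all 4 libraries it did not pass (log2 fold change -0.48 ± 0.22, edgeR adjusted p = 0.134). Without control 1, 23 complex I members rose, and without control 2 or without stimulated 1, 9 did.

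Complex II, succinate dehydrogenase, also works as an enzyme of the TCA cycle, and its 4 subunits did not move by the same amount. Sdhb, the iron-sulphur subunit, was at 115 and 92.8 CPM in controls and at 183 and 150.0 CPM after stimulation, and rose (log2 fold change 0.68 ± 0.17, edgeR adjusted p = 0.0218). Sdhd, a membrane anchor, was at 168 and 165 CPM in controls and at 241 and 226 CPM after stimulation, and rose (0.49 ± 0.13, edgeR adjusted p = 0.0294). The other anchor, Sdhc, was at 137 and 139 CPM in controls and 177 and 173 CPM after stimulation and did not pass (0.35 ± 0.13, edgeR adjusted p = 0.0774). Sdha, the flavoprotein that oxidises succinate, was at 161 and 142 CPM in controls and 186 and 144 CPM after stimulation, so the groups overlapped (0.12 ± 0.17, edgeR adjusted p = 0.623). The difference between the subunits was not tested. Sdhb did not pass without control 2 (0.0794) or without stimulated 1 (0.0994), and Sdhd lost its call in each of the 4 fits that left out 1 library (0.0627 to 0.146). The count for complex II was thus 0 without control 2 or without stimulated 1, and 1 without control 1 or without stimulated 2.

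In complex III, the cytochrome bc1 complex, 5 of 8 members rose, none fell, and in all 8 both stimulated libraries lay above both controls, with a median log2 fold change of 0.70. The core proteins Uqcrc1 and Uqcrc2 and the Rieske iron-sulphur protein Uqcrfs1 all rose. Uqcrfs1 was at 76.1 and 61.6 CPM in controls and 153 and 107 CPM after stimulation (0.92 ± 0.21, edgeR adjusted p = 0.0156, and 0.0547 without stimulated 1). Uqcrc2 was at 147 and 145 CPM in controls and 228 and 206 CPM after stimulation (0.57 ± 0.14, edgeR adjusted p = 0.0175). That call was lost without control 1 (0.0512), without control 2 (0.0575) and without stimulated 1 (0.0975), and its exons overlap Pdzd9 on the opposite strand. Among the small subunits, Uqcrb was at 11.4 and 9.73 CPM in controls and 21.3 and 19.6 CPM after stimulation (0.95 ± 0.18, edgeR adjusted p = 0.00745). Uqcrb shares 25.5% of its 50-base stretches with other genes and overlaps Gm10767 on the opposite strand.

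The remaining small subunits of complex III varied more between libraries. Uqcr10 was at 125 and 76.1 CPM in controls and 195 and 139 CPM after stimulation. It did not pass (0.73 ± 0.28, edgeR adjusted p = 0.0956). Uqcrh, the hinge protein that helps cytochrome c to bind, was at 148 and 115 CPM in controls and 189 and 172 CPM after stimulation. It did not pass either (0.46 ± 0.16, edgeR adjusted p = 0.0705). Uqcrq had the largest log2 fold change of the complex, 1.15 ± 0.48, yet did not pass (edgeR adjusted p = 0.134), since it was at 23.1 CPM in stimulated 1 and 54.4 CPM in stimulated 2, against 13.8 and 21.1 CPM in controls. It is described here because its value stood out after the data were seen. Uqcr11 rose, with a log2 fold change of 0.66. Without control 2, and likewise without stimulated 1, 2 members of complex III rose.

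In complex IV, cytochrome c oxidase, 4 of 12 members rose, 1 fell and 7 did not pass, with a median log2 fold change of 0.55. The 10 widespread subunits, all but Cox7a2l and Cox7a1, had log2 fold changes from 0.17 to 0.96. The nuclear subunits of this complex wrap the catalytic core that mitochondrial DNA encodes. Cox7b rose from 125 and 80.4 CPM to 231 and 168 CPM (0.96 ± 0.26, edgeR adjusted p = 0.0312). Cox5a rose from 83.0 and 55.5 CPM to 130 and 104 CPM (0.76 ± 0.22, edgeR adjusted p = 0.0384), and its exons overlap Gm26631 on the opposite strand. Cox8a rose from 274 and 214 CPM to 395 and 335 CPM (0.58 ± 0.18, edgeR adjusted p = 0.041). The groups did not overlap in these genes, and control 1 was above control 2 in each. All 3 calls were lost without control 2, with edgeR adjusted p-values of 0.0535 for Cox7b, 0.103 for Cox5a and 0.174 for Cox8a. They were also lost without stimulated 1, with values of 0.105, 0.138 and 0.176. None of the complex IV members rose in either of those fits, and 7 rose without control 1. With total count scaling 1 member rose, as also with upper quartile scaling.

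The only member that fell was Cox7a2l, also known as SCAF1, a relative of the COX7A subunits that joins complexes III and IV into supercomplexes (chr17:83501919-83514333, minus strand, as listed). It was at 81.6 and 73.8 CPM in controls and at 48.7 and 48.3 CPM in stimulated libraries, a fold change of 0.624 (log2 fold change -0.68 ± 0.14, edgeR adjusted p = 0.00921). Each control value was above both stimulated values, and the call held in all 4 fits that left out 1 library and in all other settings tried. Its paralogues differed from it and from each other. Cox7a2, the form found in most tissues, rose from 183 and 118 CPM to 279 and 229 CPM (0.76 ± 0.23, edgeR adjusted p = 0.0444). That call was lost without control 2 (0.119) and without stimulated 1 (0.154). Cox7a1, the form of heart and skeletal muscle, was low, at 10.2 and 5.09 CPM in controls and 3.76 and 3.72 CPM after stimulation, and did not pass (-1.03 ± 0.36, edgeR adjusted p = 0.0636). Its controls differed more than its stimulated libraries did. The differences between the paralogues' changes were not tested.

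The subunits of complex IV with tissue forms were read almost wholly from the widespread form. Cox4i1 was at 398 and 281 CPM in controls and 461 and 398 CPM after stimulation (0.34 ± 0.20, edgeR adjusted p = 0.233), while Cox4i2, the form of lung, had 3 counts in all 4 libraries. Cox6a1 was at 298 and 198 CPM in controls and 401 and 316 CPM after stimulation (0.53 ± 0.23, edgeR adjusted p = 0.12). Cox6b1 was at 238 and 175 CPM in controls and 313 and 275 CPM after stimulation (0.51 ± 0.19, edgeR adjusted p = 0.0714). Per length (mean RPKM), Cox6b1 and Cox6a1 were the most abundant complex IV genes that did not pass, and both stimulated libraries lay above both controls in each. The muscle forms Cox6a2 and Cox8b had 20 and 5 counts over the 4 libraries, and the testis forms Cox6b2, Cox7b2 and Cox8c had 14, 3 and 0. These 6 genes and Ndufa4l2 fell short of 100 counts and were not members. Ndufa4l2, a relative of Ndufa4 known to be induced in low oxygen, came closest with 93 counts: 23 and 6 in controls and 27 and 37 after stimulation. AA467197, the mouse gene for the other relative of Ndufa4, had 0 and 0 counts in controls and 1 and 4 after stimulation. The member with the fewest counts was Atp5l, with 344.

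**Figure D3:**
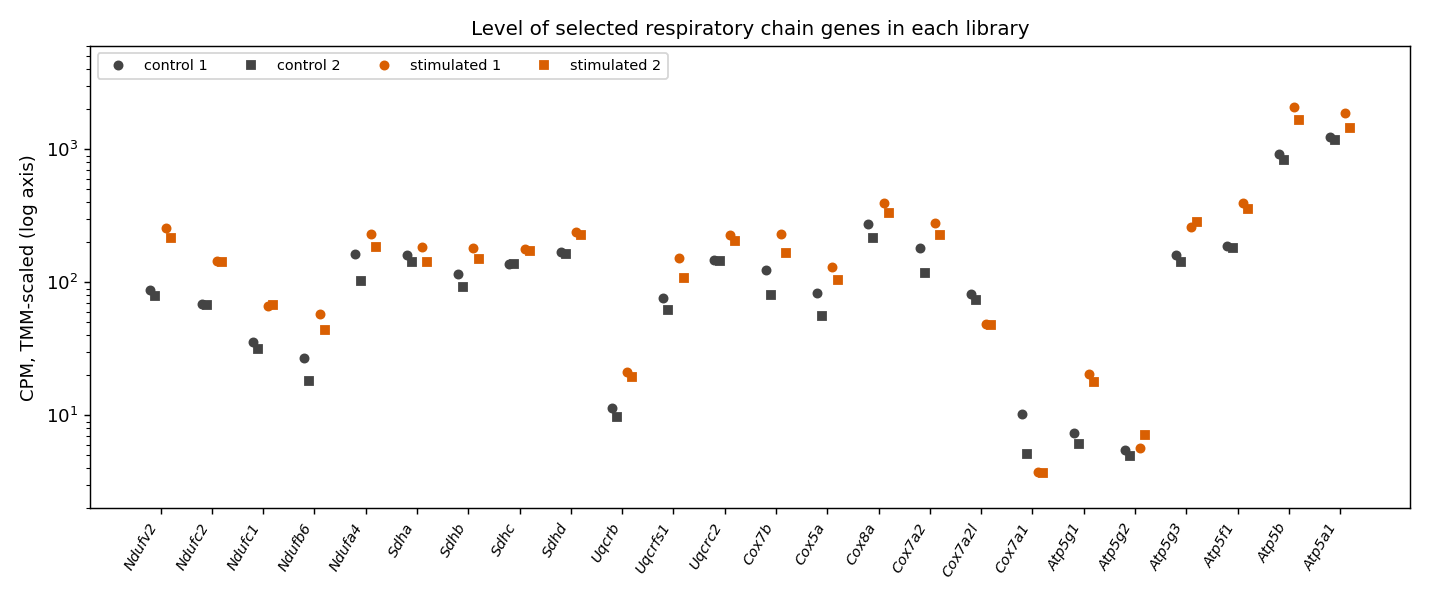
TMM-scaled CPM of 24 members in each of the 4 libraries on a log axis, with controls in grey, stimulated libraries in orange, circles for library 1 and squares for library 2. Ndufv2, Ndufc2, Atp5g1 and Atp5b are clearly separated by group, Sdha is not, and Cox7a2l and Cox7a1 lie lower in stimulated libraries.

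In complex V, the ATP synthase, 7 of 17 members rose, none fell, and in all 17 both stimulated libraries lay above both controls, with a median log2 fold change of 0.75. The 2 large subunits that form the catalytic head differed. Atp5b, the beta subunit that holds the catalytic sites, rose from 926 and 833 CPM to 2067 and 1650 CPM (1.08 ± 0.18, edgeR adjusted p = 0.00482). Atp5a1, the alpha subunit, was at 1235 and 1178 CPM in controls and 1890 and 1461 CPM after stimulation. It did not pass (0.47 ± 0.18, edgeR adjusted p = 0.0839). The difference between them was not tested. Of the central stalk, Atp5c1 rose with a log2 fold change of 0.52, although the call was lost in each of the 4 fits that left out 1 library (edgeR adjusted p from 0.0539 to 0.125). Atp5d and Atp5e, with 0.81 and 0.52, did not pass.

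Of the peripheral stalk, which holds the head in place, Atp5f1 and Atp5o rose, and Atp5h and Atp5j did not pass, with log2 fold changes of 0.17 and 0.19. Atp5f1 rose from 189 and 183 CPM to 395 and 359 CPM (1.02 ± 0.14, edgeR adjusted p = 0.00236), and its exons overlap Wdr77 on the opposite strand. Atp5o rose by 0.79 ± 0.17 (edgeR adjusted p = 0.0132), but 41.6% of its 50-base stretches also occur in other genes. Of the small membrane subunits Atp5k rose, by 0.78, and Atp5j2, Atp5l and Atp5mpl did not pass. Atp5mpl, the most abundant of these per length (mean RPKM), was at 121 and 92.5 CPM in controls and 148 and 137 CPM after stimulation. Its log2 fold change was 0.41 ± 0.17 (edgeR adjusted p = 0.0967). Without 1 library, the median log2 fold change of complex V ran from 0.44 to 0.95.

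The c subunit, which forms the rotating ring in the membrane, is encoded by 3 genes whose mature proteins are the same, and these genes did not respond alike in size. Atp5g1 (chr11:96068852-96075670, minus strand, as listed) rose from 7.37 and 6.08 CPM to 20.3 and 17.9 CPM, the highest log2 fold change among the members (1.51 ± 0.20, edgeR adjusted p = 0.00212). Atp5g3, whose promoter is printed above, rose from 161 and 141 CPM to 263 and 286 CPM (0.86 ± 0.15, edgeR adjusted p = 0.0051). Atp5g2 was at 5.54 and 4.92 CPM in controls and 5.74 and 7.09 CPM after stimulation and did not pass (0.29 ± 0.24, edgeR adjusted p = 0.385). Per length, Atp5g3 had the highest counted level of the 3 genes in both groups. Its mean was 69.4 RPKM (CPM per kilobase of listed length) in controls and 126 RPKM after stimulation. For Atp5g1 the means were 1.37 and 3.89 RPKM. For Atp5g2 the means were 3.12 and 3.83 RPKM, and 38.3% of its 50-base stretches occur in other genes. That share was 11.1% for Atp5g1, so the levels of both are less certain.

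The levels of the members spanned more than 2 orders of magnitude per length. The highest were Cox8a, at 448 RPKM in controls and 670.2 RPKM after stimulation, Cox6b1, at 409 and 582 RPKM, Atp5a1, at 385 and 535 RPKM, and Cox6a1, at 353 and 511 RPKM. These 4 held the first places in both groups. The control SDs of Cox8a, Cox6b1 and Cox6a1 were 77.1, 88.0 and 102 RPKM (n = 2), with control 1 above control 2 in each. Within each library Cox8a lay above Cox6b1 and Cox6b1 above Cox6a1, while the place of Atp5a1 varied. Differences between neighbours in this order were not tested. Atp5b stood in place 9 in controls, at 208 RPKM, and in place 5 after stimulation, at 439 RPKM. The lowest in controls were Atp5g1, at 1.37 RPKM, Atp5s, a coupling factor and not a structural subunit, at 2.24 RPKM, and Ndufb2, at 2.71 RPKM. These places depend on the listed length, which is 4912 bases for Atp5g1 and 5628 for Ndufb2. By CPM, Ndufb2, with a control mean of 15.3, lay above Ndufs5, with 3.85. By complex, the median control level was 99.0 RPKM for complex IV, 65.6 for III, 62.8 for V, 48.1 for I and 44.4 for II. At least 20% of the 50-base stretches were shared with other genes in 7 members, of which 3 rose, and 19 members overlap exons of another listed gene, so their levels are less certain. Of the 70 members with under 20% shared stretches, 29 rose and 1 fell, and some of these 70 overlap exons of another gene. Over the 4 libraries these 70 had a median of 80.5 RPKM, against 17.7 RPKM for the 7 with at least 20%.

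The subunits encoded by mitochondrial DNA gave no call by these tests with all 4 libraries. Of 13 genes, 7 were tested, and none rose or fell by edgeR, DESeq2 or limma-voom, with none at an unadjusted p under 0.05 and a median log2 fold change of 0.11. mt-Co1, the catalytic subunit of complex IV, was at 3392 and 2053 CPM in controls and 2446 and 2381 CPM after stimulation, so that the stimulated values lay between the controls (-0.17 ± 0.25, edgeR adjusted p = 0.626). All 7 were higher in control 1 than in control 2, by a median of 0.92 on the log2 scale. Without control 1, 4 of them rose and the median log2 fold change was 0.77, and without control 2, 1 fell and the median was -0.38. With the length and GC correction the median was -0.07, and with all genes of at least 1 count in the fit, 1 of the 7 rose. The other 6, mt-Co2, mt-Co3, mt-Atp6, mt-Atp8, mt-Nd3 and mt-Nd4l, were listed at 0 in all libraries. Whether nuclear and mitochondrial genes differed in their change was not tested.

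Genes that work beside the chain were read from lists of textbook members. Cytochrome c1, Cyc1, the complex III subunit outside the symbol rule, rose from 220 and 202 CPM to 394 and 399 CPM (0.91 ± 0.14, edgeR adjusted p = 0.0034). Cytochrome c, Cycs, rose from 5.01 and 6.46 CPM to 9.15 and 13.4 CPM (0.98 ± 0.27, edgeR adjusted p = 0.0303), though not without control 1 (0.1) or without stimulated 2 (0.136). Ndufab1, a complex I subunit also outside the rule, was at 14.0 and 18.2 CPM in controls and 16.9 and 30.4 CPM after stimulation. The groups overlapped and it did not pass (0.55 ± 0.30, edgeR adjusted p = 0.208). By edgeR, 2 of these 3 genes rose, while 17.5% of all genes tested rose and 18.3% fell. Of the 45 assembly factors tested, 19 rose and none fell by edgeR, with a median log2 fold change of 0.45. DESeq2 called 20 higher and none lower, none was lower at an unadjusted p under 0.05, and 11 rose without stimulated 1. Those with the smallest p were Uqcc2, for complex III, which rose from 79.5 and 61.0 CPM to 193 and 184 CPM (1.42 ± 0.17, edgeR adjusted p = 0.0014), and Ndufaf5, for complex I, which rose from 12.2 and 10.7 CPM to 29.6 and 29.5 CPM (1.37 ± 0.16, edgeR adjusted p = 0.0014). The assembly factors were higher in control 1 than in control 2 in 23 of 45 cases.

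Of the mitochondrial carriers that exchange ADP and ATP or import phosphate, 2 of 3 tested rose, against 17.5% of all genes tested. Slc25a5 rose from 108 and 91.3 CPM to 314 and 243 CPM (1.48 ± 0.18, edgeR adjusted p = 0.0016), and Slc25a4 from 319 and 340.1 CPM to 604 and 581 CPM (0.85 ± 0.14, edgeR adjusted p = 0.005). In the synthesis of coenzyme Q, the electron carrier between complexes, 8 of 13 rose and 2 fell, against 17.5% and 18.3% of all genes. Pdss1, which makes the side chain, rose from 7.43 and 6.87 CPM to 26.8 and 21.6 CPM (1.76 ± 0.19, edgeR adjusted p = 0.0011). Coq8a, a kinase-like protein of the same pathway, fell from 21.5 and 25.5 CPM to 3.96 and 6.48 CPM (-2.17 ± 0.27, edgeR adjusted p = 0.0017), and Coq2 fell with a log2 fold change of -0.62. Without control 2, and likewise without stimulated 1, 4 of the 13 rose, and 1 fell in each of the fits without control 1, stimulated 1 or stimulated 2. Of 16 genes of the TCA cycle and pyruvate dehydrogenase, 4 rose and none fell by edgeR (25%, against 17.5% of all genes tested), with a median of 0.36. None was lower by DESeq2 or at an unadjusted p under 0.05. Without control 2, 2 rose, and without stimulated 1, 1 did. The 4 were Mdh2 (0.97), Suclg2 (0.54), Fh1 (0.49) and Pdhb (0.46), and Fh1 lost its call in each of the 4 fits that left out 1 library (edgeR adjusted p from 0.0587 to 0.127).

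Of 16 regulators of mitochondrial genes, 5 rose and 1 fell, against 17.5% and 18.3% of all genes tested. Their median log2 fold change was 0.09. Myc, a growth-linked transcription factor, rose from 20.01 and 12.6 CPM to 50.2 and 47.6 CPM (1.58 ± 0.23, edgeR adjusted p = 0.0031). Pprc1, a coactivator of the PGC-1 family, rose with 1.44, and Nrf1, whose motif was searched above, rose with 0.53. Gabpb1 and Tefm rose with 0.54 and 0.73. Without stimulated 1, 1 regulator rose, without control 1, 2 did, and without control 2 or stimulated 2, 3 did. Ppargc1a, which encodes the coactivator PGC-1 alpha, was low and fell from 2.82 and 3.11 CPM to 0.911 and 0.657 CPM (-1.91 ± 0.32, edgeR adjusted p = 0.0051). Tfam, Gabpa, Yy1, Esrra and Hif1a did not pass, with log2 fold changes of -0.15, -0.17, -0.17, -0.21 and 0.09. Ppargc1b, also of the PGC-1 family, was low, at 3.19 and 1.33 CPM in controls and 0.990 and 0.875 CPM after stimulation. It did not pass (-1.27 ± 0.47, edgeR adjusted p = 0.0771).

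**Figure D4:**
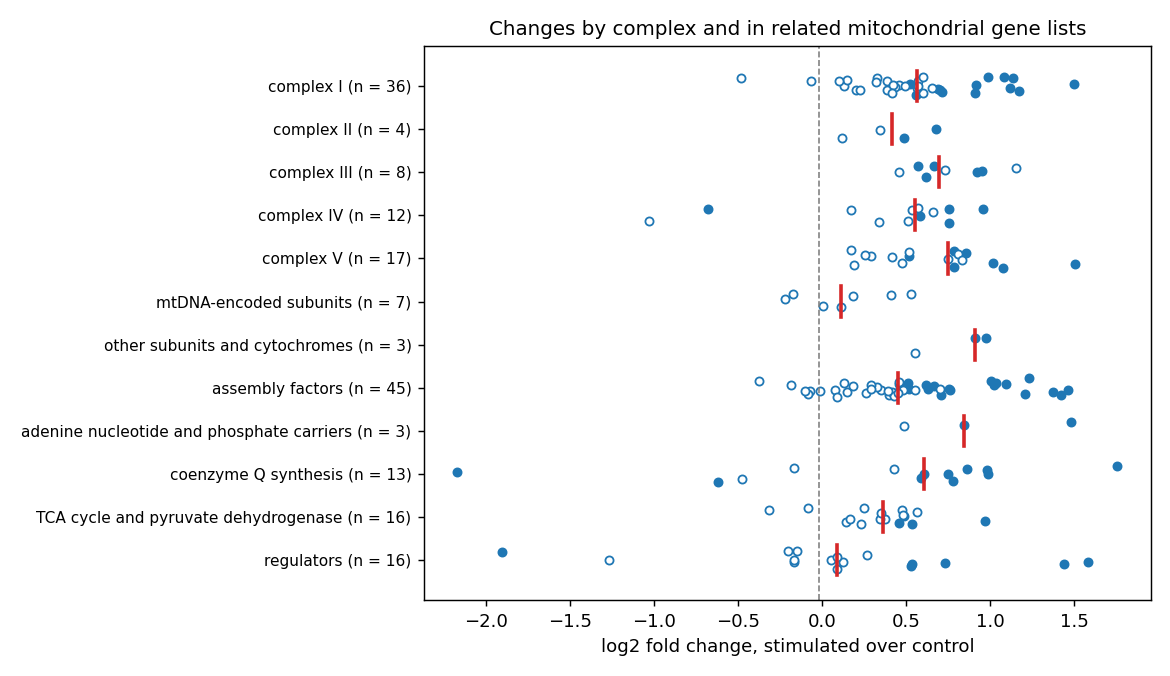
Log2 fold change of each gene by complex and in the related lists, stimulated over control; filled points passed edgeR's adjusted p of 0.05, red bars are list medians and the dashed line is the median of all genes tested. The 5 complexes have medians from 0.42 to 0.75, the subunits encoded by mitochondrial DNA 0.11 and the regulators 0.09.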

How the data were processed

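RNA-seq libraries of Mnk3 cells, 2 control and 2 stimulated, were grouped by the treatment in the labels. The submitters' processing notes name STAR, Subread and featureCounts. Their versions, the build, the annotation and the strand setting were not given in the sources used here. Each table lists genes by Ensembl identifier with position and length, per the file headers. The counts deposited by the authors are whole numbers per gene, unnormalised. In the values, deposited CPM are the counts scaled by the summed counts, and deposited RPKM are those CPM per kilobase of listed length; neither was used further. CPM and RPKM in the text were computed from the counts with TMM-scaled library sizes, and SDs are over 2 libraries.

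Of 41388 identifiers, 40340 matched GENCODE M21, which gave symbols, gene types and exons. Counts were tested with edgeR 4.0.16 (limma 3.58.1, R 4.3.3): filterByExpr, TMM, robust quasi-likelihood, treatment as the only term, Benjamini-Hochberg over 13838 genes, threshold 0.05. The common biological coefficient of variation was 18.4%. The fits were tested on simulated data. Alternatives were other scalings and filters, DESeq2 1.42.0, limma-voom, a loess correction for length and GC content (span 0.3), a term for title kind, and leaving out single libraries. No set test was run. The values of 1 member, which is counted throughout, are not reported here.

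Genes named were all of complex II, per other complex the 3 called members of smallest adjusted p in each direction and the 2 most abundant not called, the 3 largest rises and falls, the isoform groups, and 2 called genes per related list. Others are named where a count is small or where their value stood out. The members and lists were chosen with earlier results of these data known, and the grouping of subunits by role within a complex was written afterwards. Shared stretches are runs of 50 bases found in transcripts of another gene.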

Additional observations from a re-analysis of the deposited data

How the results depend on the processing

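No result turned from higher to lower or the reverse past the threshold. For the 77 members, the count that rose was 51 with all genes of at least 1 count and 62 with a block that set titles with a number apart from those without. The count that fell was 3 in both of these fits, and 2 with DESeq2 and with the length and GC correction. Without 1 library, 16 to 48 rose, 1 to 3 fell, and the median log2 fold change ran from 0.40 to 0.78. For complex I, 22 rose and 1 fell with all genes of at least 1 count, and 29 rose and 1 fell with the block. Its median was 0.45 with the length and GC correction and ran from 0.35 to 0.79 without 1 library. For complex II, 1 rose with the length and GC correction. Its median was 0.32 with total count scaling and 0.34 with that correction, and ran from 0.38 to 0.47 without 1 library. For complex III, 8 rose with DESeq2 and with the block, and 2 to 6 without 1 library, with a median from 0.54 to 0.89. For complex IV, 1 rose with total count scaling, upper quartile scaling or the length and GC correction, 7 with all genes of at least 1 count and 9 with the block, and 2 fell with all genes of at least 1 count, DESeq2, the correction and the block. Without 1 library, 0 to 7 of complex IV rose and 1 to 2 fell. For complex V, 13 rose with all genes of at least 1 count, 11 with DESeq2 and 13 with the block, and 5 to 11 without 1 library, with a median from 0.44 to 0.95. Total count scaling moved the median of all genes to -0.11.

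The labels state no pairing, since only 1 title per group carries a replicate number, so the block by title is a description. It called 3986 genes higher and 4000 lower, against 2417 and 2533. With it, 32 members gained a call and none lost one. In the related lists it called 2 of 7 subunits encoded by mitochondrial DNA higher, 32 of 45 assembly factors higher, and 11 higher and 1 lower of 16 TCA cycle and pyruvate dehydrogenase genes. With all genes of at least 1 count, 7 of those 16 rose. Of the 33 calls, 23 held in all settings that kept every library and 16 in every setting. Among the members, Ndufa1, Ndufa3, Ndufa7, Ndufv1 and Sdha, none of them called, changed sign in some setting. With 2 libraries a group, genes whose controls lay far apart limit what could be called, and the causes of these shifts were not tested.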
